A study of Homo sapiens with 6 samples.

Results

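The replication-dependent histone genes of T98G cells, an established human glioblastoma line, were described across poly(A)-selected RNA-seq libraries. Members were the protein-coding genes with a current symbol of the H1-1 to H1-6, H2AC, H2BC, H3C or H4C series. The rule gave 69 genes, of 60483 gene identifiers in each count table. Of these, 34 had at least 10 reads summed over the 6 libraries, 20 had 1 to 9 reads and 15 had 0 reads. H2AC14 and H3C2, with 12 reads each, were the least read genes kept, and H1-5 and H3C13, with 9 reads each, lay just outside. Of the 34 genes, 29 lie on chromosome 6, 4 on chromosome 1 and 1 on chromosome 12.

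The study compared 3 groups of 2 libraries each. NT cells received no treatment. The shSRPK1 cells were transiently transfected, with a lipid reagent, with an shRNA against SRPK1 in the pLKO.1 plasmid. The oeSRPK1 cells were transfected in the same way with full-length SRPK1 cDNA in pcDNA3.1. SRPK1 is a kinase that phosphorylates SR proteins, a family of splicing factors. No library of cells transfected with an empty or non-targeting plasmid was analysed here, so each comparison with NT carries the effect of transfection together with that of the construct. The design text calls the duplicates biological, without saying how the cultures were separated, and p-values measure the spread between these libraries.

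Histone proteins package DNA into nucleosomes: H2A, H2B, H3 and H4 form the core, and the linker histone H1 binds where DNA enters and leaves it. The genes described here are mostly intronless, lie in clusters and supply the histones for newly copied DNA, so that their mRNAs are abundant in S phase. Their mRNAs normally end just after a short stem-loop, which the protein SLBP binds, and carry no poly(A) tail. Some of these genes also give longer or spliced transcripts that end in a poly(A) tail. A library made by poly(A) selection therefore samples the tailed transcripts, and a read count here is not a measure of a gene's whole mRNA pool.

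The stem-loops are printed to show the RNA end that sets this family apart. The search motif was GGNNCTTTT followed directly by NAGNNCC, on the transcript strand, in GENCODE 29 transcripts (GRCh38). It was present in 30 of the 69 genes, 20 of them among the 34 with at least 10 reads. These 30 genes held 5 distinct 16-base stem-loops, shown in capitals with 5 flanking bases on each side, from the gene with the most reads in each group.
H2AC6: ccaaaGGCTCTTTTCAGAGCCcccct
H2BC5: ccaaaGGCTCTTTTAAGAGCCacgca
H2AC11: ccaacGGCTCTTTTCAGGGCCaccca
H4C8: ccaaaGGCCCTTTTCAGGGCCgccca
H4C9: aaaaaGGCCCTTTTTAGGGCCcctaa
The stem-loop of H2AC6 was shared by 17 genes: 6 of H2A, 8 of H2B (H2BC21 among them) and 3 of H3 (H3C10 among them). That of H2BC5 was shared by 4 genes, and that of H2AC11 was found in H2AC11 alone. The stem-loops of H4C8 and H4C9 were found in 5 and 3 genes, all of type H4. No H1 gene had a match, and the annotated transcripts of H1-2 and H1-3 hold the coding sequence only, so the RNA after it was not searched.

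The promoters are printed for 2 neighbours that share a start region, for the most read H1 and H2B genes, and for an H4 gene. Each sequence is the 150 bases before the RefSeq start site (GRCh38.p14), read towards the gene. Capitals mark, on either strand, the TATA box motif TATAAA, the CCAAT box motif CCAAT and the octamer ATTTGCAT. ATTGG and ATGCAAAT in capitals are CCAAT and the octamer on the other strand.
H2AC6, chr6:26124022-26124171, plus strand: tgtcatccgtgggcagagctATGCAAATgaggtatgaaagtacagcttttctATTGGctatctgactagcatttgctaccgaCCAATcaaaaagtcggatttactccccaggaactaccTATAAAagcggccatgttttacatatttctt
H2BC4, chr6:26123927-26124076, minus strand: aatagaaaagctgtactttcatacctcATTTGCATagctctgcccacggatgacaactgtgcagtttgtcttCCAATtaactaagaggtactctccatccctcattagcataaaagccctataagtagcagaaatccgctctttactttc
H2BC5, chr6:26157971-26158120, plus strand: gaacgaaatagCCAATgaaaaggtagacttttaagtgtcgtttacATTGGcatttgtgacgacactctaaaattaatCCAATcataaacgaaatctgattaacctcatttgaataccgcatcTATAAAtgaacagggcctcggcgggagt
H1-2, chr6:26056471-26056620, minus strand: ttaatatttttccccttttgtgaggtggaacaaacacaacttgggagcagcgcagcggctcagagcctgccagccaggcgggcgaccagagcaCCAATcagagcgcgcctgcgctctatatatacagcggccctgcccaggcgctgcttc
H4C8, chr6:26285535-26285684, minus strand: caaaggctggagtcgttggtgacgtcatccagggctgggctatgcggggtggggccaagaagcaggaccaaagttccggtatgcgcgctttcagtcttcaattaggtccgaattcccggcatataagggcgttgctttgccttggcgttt
The windows of H2AC6 and H2BC4 overlap, and the octamer printed in each is the same site read from the opposite strand. Over the 300-base RefSeq windows, from 250 bases before to 50 after the start, TATAAA was present in 21 of the 34 histone promoters (61.8%) and in 14.0% of all 27305 promoters. CCAAT was present in 30 of 34 (88.2%), against 39.7% of all promoters, and the 4 histone promoters without it were of H4 genes. The octamer was present in 16 of 34 (47.1%), against 2.19% of all promoters. It stood in 6 of 8 H2A, 9 of 12 H2B and 1 of 6 H3 promoters, and in 0 of 3 H1 and 0 of 5 H4 promoters. The H3 promoter was that of H3C4. For 1 of its 2 RefSeq start sites, the 150 bases before it (chr6:26199294-26199443) are also those before H2AC7. The same octamer lies in the window of H2BC7, so it is counted under H2A, H2B and H3. The 150 bases before H2AC8, H2AC11 and H2AC20 hold no octamer. Their 300-base windows take in the octamer of a head-to-head neighbour, H2BC8, H2BC11 and H2BC21. The H2A and H2B counts thus hold many of the same sites, and the 34 promoters are not all separate regions. These are matches of letters and say nothing of whether a factor was bound.

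The libraries held 3891549 to 22691215 reads in genes. Replicate 2 of oeSRPK1 was the shallowest and replicate 1 of oeSRPK1 the deepest, so 3 reads, the limit that a count of 0 allows, stood for 0.132 to 0.771 CPM (reads scaled to a common library size). All other CPM values use TMM-normalised library sizes. SRPK1 itself had 153 and 140.4 CPM in NT cells, 113 and 140.1 with shSRPK1, and 190.3 and 168 with oeSRPK1. The edgeR quasi-likelihood test, adjusted over all 14732 tested genes by the Benjamini-Hochberg method, called it in neither comparison with NT (log2 fold change -0.21 ± 0.14 SE, adjusted p = 0.36 in shSRPK1; 0.29 ± 0.14 SE, adjusted p = 0.175 in oeSRPK1). Between the transfected groups, the test called SRPK1 higher with oeSRPK1 (0.50 ± 0.14, edgeR adjusted p = 0.0377). Of 10 T98G and glioma markers, VIM, CD44, S100A6, ANXA1 and EGFR were at 304 CPM or more in every library, SOX2 and S100B had 0 reads and GFAP had 1. Markers of immune, endothelial and erythroid cells summed to 0.855 CPM or less in any library, and 4 neuronal markers to 7.24 to 23.9 CPM. Markers of skeletal muscle summed to 223 and 2652 CPM in the oeSRPK1 libraries, 11.95 in replicate 2 of shSRPK1 and at most 1.20 in the other libraries.

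Histone reads came mainly from a few genes. All 69 genes together had 18199 reads over the 6 libraries, and 5 genes held 85.3% of them. H1-2, a linker histone, had 6433 reads (35.3%). H2AC6, an H2A gene, had 5002 (27.5%), and the H2B genes H2BC5, H2BC21 and H2BC12 had 2140, 1283 and 663. H2AC11, the next gene, held 1.43%. Types H3 and H4 together held little: 413 reads (2.27%) for 13 H3 genes and 389 reads (2.14%) for 15 H4 genes. Per kilobase of annotated exon, the NT mean was 85.2 CPM for H1-2, 18.6 for H2BC5, 15.1 for H2AC6, 11.5 for H2BC12 and 3.10 for H2BC21.

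**Figure D1:**
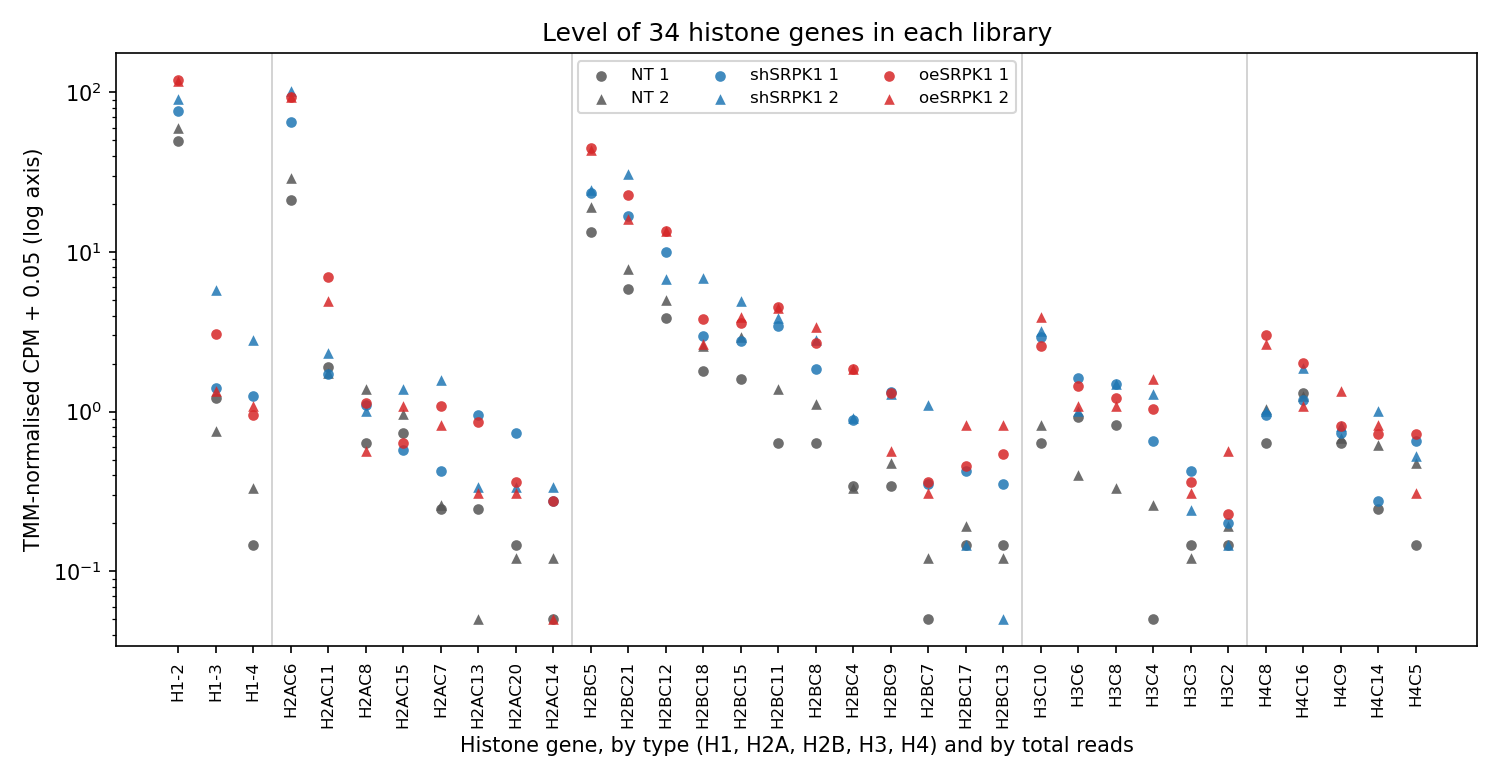
Level of each of the 34 histone genes in each library, in TMM-normalised CPM plus 0.05 on a log axis. Genes are ordered by histone type and, within a type, by total reads; circles are replicate 1 and triangles replicate 2. H1-2 and H2AC6 stand above all others, and most genes lie below 5 CPM.

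Head-to-head neighbours often had unequal read counts, which are given here without scaling for length. Many H2A and H2B genes stand in such pairs, and 12 pairs of histone genes had GENCODE 29 gene starts under 1000 bases apart. For genes listed with the coding sequence only, such as H2AC20, H2BC12 and H2AC12, that start is the start codon and not the RNA start. H2BC4 and H2AC6 start 218 bases apart, and had 74 and 5002 reads. H2BC21 and H2AC20 start 322 bases apart, and had 1283 and 22 reads. H2BC12 and H2AC12 had 663 and 6 reads. H2BC11 and H2AC11, 291 bases apart, had near equal totals of 226 and 261.

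Genes with a long annotated transcript had more reads. For 26 of the 69 genes, GENCODE 29 lists a transcript that is spliced or runs at least 200 bases past the stem-loop. Of these 26, 19 had at least 10 reads and 11 had at least 100, with a median of 75 reads (range 0 to 5002). For 11 genes only a short transcript with flanking bases is listed: 4 had at least 10 reads, 0 had 100, and the median was 4 (range 0 to 75). For 32 genes only the coding sequence is listed: 11 had at least 10 reads, 3 had 100, and the median was 5.5 (range 0 to 6433). A longer model also collects more reads, and these counts were not tested. The most read gene, H1-2, is a member of the group with the coding sequence only, as is H2BC12. In H2AC6 (chr6:26124145-26139116), a spliced transcript extends 1128 bases past the stem-loop. In H2BC21 (chr1:149884459-149886652), a single exon extends 1729 bases past it. The 19 long-model genes held 57.1% of the histone reads and the 11 coding-sequence genes 41.3%. Of RNAs that carry no poly(A) tail, such as RN7SK and RMRP, 11 summed to 0.450 to 1.21 CPM per library, and 6 had 0 reads throughout. This list was added last, and reads aligned at several places entered no count. The low sum thus does not measure how much untailed histone mRNA was sampled, and its cause was not tested.

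**Figure D2:**
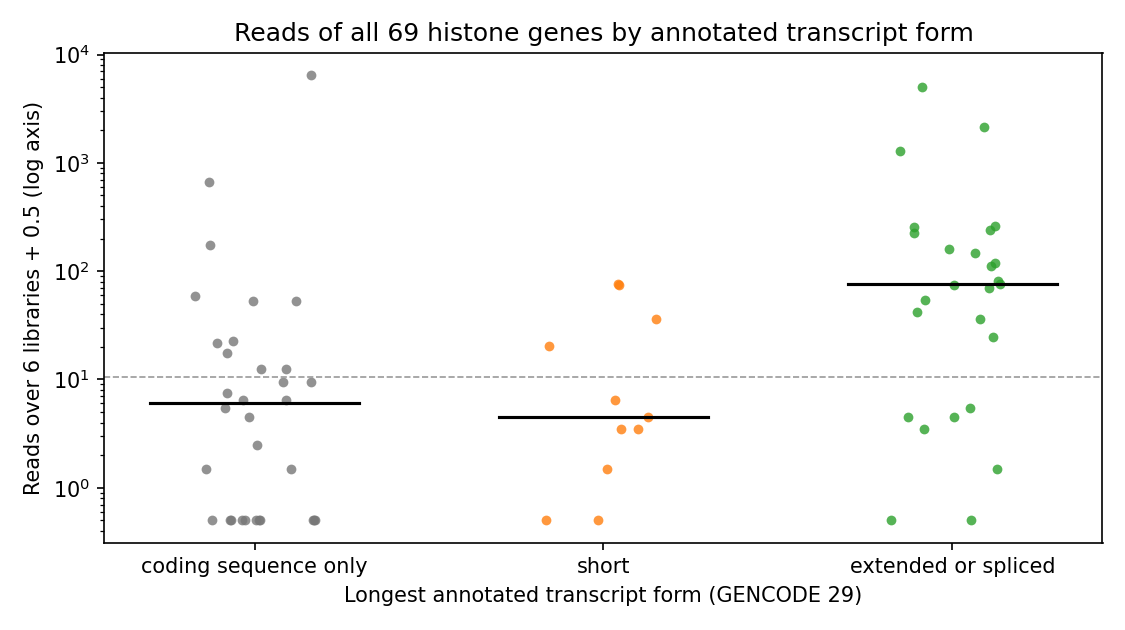
Reads over the 6 libraries, plus 0.5 on a log axis, of all 69 histone genes by the longest transcript form annotated in GENCODE 29. Each point is a gene, the black line is the group's median and the dashed line marks 10 reads. The medians are 5.5, 4 and 75 reads, and the highest point, H1-2, is in the group with the coding sequence only.

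Histone reads made up a larger part of the library in both transfected groups. Summed over all 69 genes, the level was 109 and 142 CPM in NT cells, 225 and 306 with shSRPK1, and 343 and 328 with oeSRPK1. No transfected library overlapped the NT libraries, and the oeSRPK1 libraries lay above the shSRPK1 libraries. The means were 125 ± 22.8 CPM (SD, n = 2), 266 ± 56.6 and 335 ± 10.4, which makes the ratios to NT 2.12 in shSRPK1 and 2.68 in oeSRPK1. A sum has no test here. In bulk RNA, a change in the number of cells that hold a transcript and a change in its amount per cell cannot be told apart.

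By type, the ratio of the summed level to NT was largest for H2A and H3. H2A genes summed to 29.2 ± 6.26 CPM (NT), 90.3 ± 27.2 (shSRPK1) and 103 ± 2.16 (oeSRPK1; SD, n = 2), ratios of 3.09 and 3.53. H3 genes summed to 2.32 ± 0.287 CPM, 7.28 ± 0.255 and 7.68 ± 1.20, ratios of 3.14 and 3.31. H2B genes summed to 34.4 ± 8.85 CPM, 73.9 ± 13.6 and 95.8 ± 6.10, ratios of 2.15 and 2.78. Linker H1 and H4 genes had the smallest ratios. H1 genes summed to 56.0 ± 7.34 CPM, 89.4 ± 14.6 and 122 ± 2.42, ratios of 1.60 and 2.18. H4 genes summed to 3.48 ± 0.668 CPM, 4.73 ± 1.02 and 6.88 ± 0.957, ratios of 1.36 and 1.98. Single genes carried some sums: H1-2 held 96.1% of the H1 reads and H2AC6 90.4% of the H2A reads. Without H1-2 the H1 ratio to NT was 4.68 in shSRPK1 and 2.54 in oeSRPK1, and without H2AC6 the H2A ratios were 1.61 and 2.46.

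**Figure D3:**
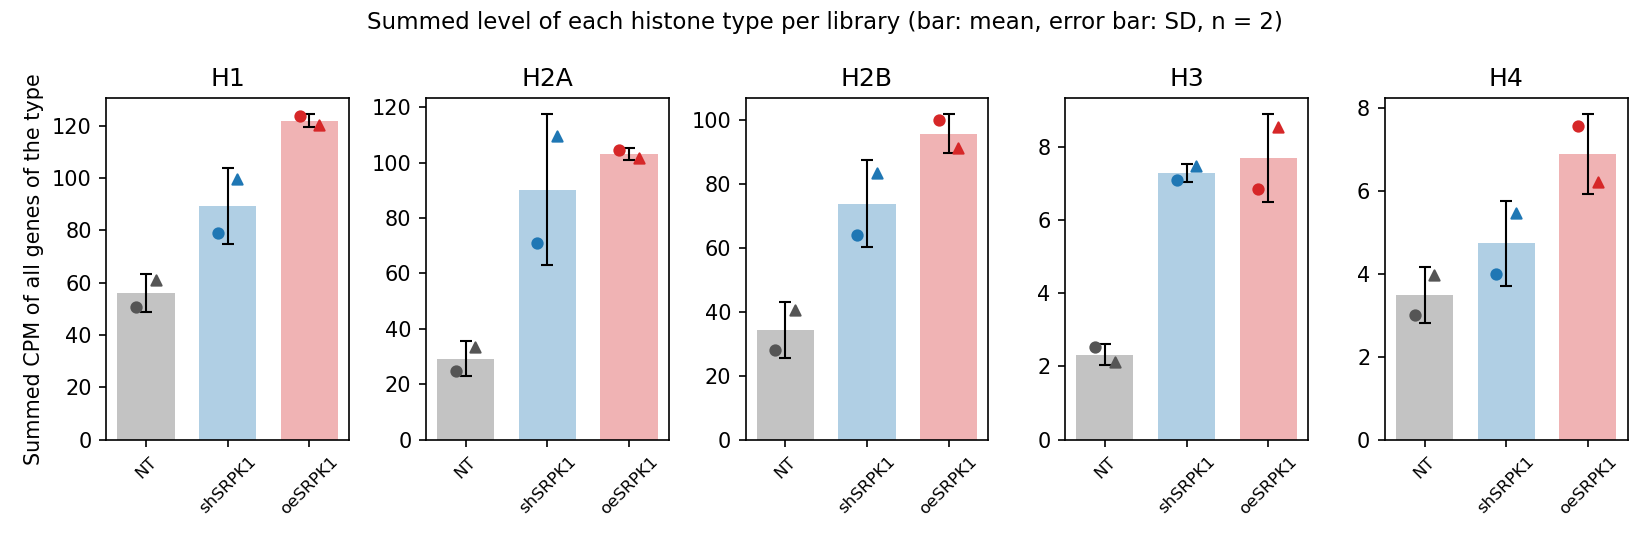
Summed level of all genes of each histone type, in TMM-normalised CPM per library. Bars are group means, error bars the SD of 2 libraries, circles replicate 1 and triangles replicate 2. For every type, both transfected groups have a higher mean than NT, and the H2A and H3 sums show the largest ratios.

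Of the 34 genes, 23 passed the filter on low counts and were tested: 3 of H1, 5 of H2A, 9 of H2B, 4 of H3 and 2 of H4. Gene positions are those of GENCODE 29 (GRCh38). A gene is called here at an edgeR adjusted p under 0.05, over all 14732 genes. In shSRPK1 against NT, 6 histone genes rose and 0 fell. Over all tested genes, 5.43% were called higher and 3.75% lower in that comparison. In oeSRPK1 against NT, 12 rose and 0 fell, where 11.2% of all tested genes were called higher and 9.45% lower. Both comparisons use the same NT libraries, so they are given side by side. The genes called in both were H1-2, H2AC6, H2BC21, H2BC11 and H3C10. H1-4 was called in shSRPK1, and H2BC5, H2BC12, H2BC8, H2BC4, H2AC11, H3C4 and H4C8 were called in oeSRPK1. The median log2 fold change of the 23 genes was 1.42 in shSRPK1 and 1.55 in oeSRPK1, beside 0.01 and -0.0007 over all tested genes. Both libraries lay above both NT libraries for 17 of the 23 in shSRPK1, where 28.8% of all tested genes did so, and for 20 of the 23 in oeSRPK1, where 35.9% did. Genes that reached the filter through the transfected libraries would tend to lie above NT, so these medians and counts describe the tested genes and not all 34. Of the called genes, H1-4, H2BC4, H2BC8, H2BC11, H3C4, H3C10 and H4C8 had 0 to 6 reads in NT replicate 1. They passed the filter only with the help of a transfected library, so the direction of their change is not independent of the filter. That limit applies also where these genes are described below.

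The number of calls in shSRPK1 moved with every library. Without NT replicate 1 or NT replicate 2 it was 0, without oeSRPK1 replicate 1 or 2 it was 1, without shSRPK1 replicate 1 it was 14 and without shSRPK1 replicate 2 it was 9. In oeSRPK1 it was 3 without NT replicate 1, 5 without NT replicate 2, 15 and 16 without shSRPK1 replicate 1 and 2, 0 without oeSRPK1 replicate 1, and 8 without oeSRPK1 replicate 2. No histone call against NT was kept in all of these 6 refits. That limit applies to every gene described below, also where it is not repeated. The median log2 fold change of the tested histones lay between 1.09 and 1.56 in shSRPK1 and between 1.38 and 1.76 in oeSRPK1 over these 6 refits. Over all genes, the number called higher lay between 24 and 2355 in shSRPK1 and between 216 and 3058 in oeSRPK1 in the same refits. Fitted on the 4 NT and shSRPK1 libraries alone, the test called 0 histones, with 12 at an unadjusted p under 0.05. In that fit 0.623% of all genes were called higher. With no filter on low counts, 13 histones were called in shSRPK1, where 5.4% of all genes were called higher.

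**Figure D4:**
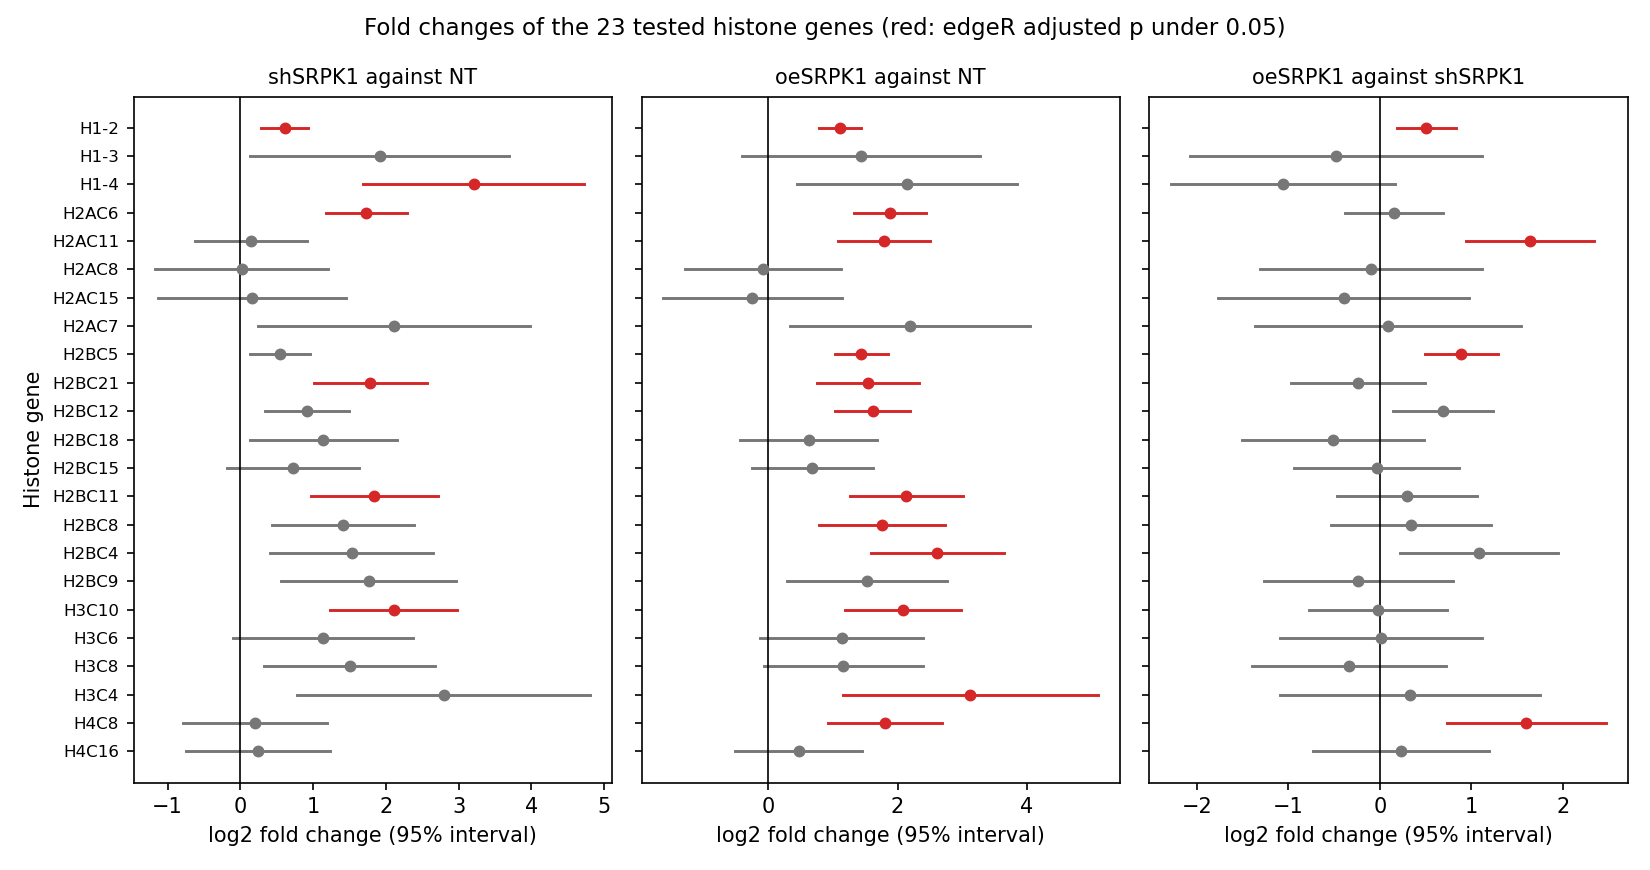
Log2 fold changes of the 23 tested histone genes with 95% intervals from edgeR, in 3 comparisons. Red marks an adjusted p under 0.05. In shSRPK1 against NT 23 of 23 points lie above 0, in oeSRPK1 against NT 21 of 23 do, and in oeSRPK1 against shSRPK1 they lie on both sides of 0.

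Among linker histones, H1-2 (chr6:26055787-26056428) rose in both groups. Its level was 49.4 and 60.0 CPM in NT cells, 76.1 and 90.9 with shSRPK1, and 119.6 and 118 with oeSRPK1. The 3 groups did not overlap. The log2 fold change against NT was 0.61 ± 0.14 (SE; edgeR adjusted p = 0.0365) in shSRPK1 and 1.12 ± 0.14 (adjusted p = 0.00248) in oeSRPK1. H1-4 (chr6:26156354-26157107), another linker histone, had few reads: 1 and 4 in NT cells, 16 and 29 with shSRPK1, and 20 and 4 with oeSRPK1. Pooled over libraries and scaled by depth, its reads were 9.29 times those of NT in shSRPK1 (exact 95% interval 3.7 to 29.99, counting error only). The edgeR fold change was 3.21 ± 0.66 on the log2 scale (adjusted p = 0.0270) in shSRPK1 and 2.15 ± 0.74 (adjusted p = 0.0753) in oeSRPK1. The call in shSRPK1 was lost without either NT library or either oeSRPK1 library (2.75 to 4.19, edgeR adjusted p = 0.0829 to 0.275). H1-3 was not called, at 1.17 and 0.706 CPM in NT cells, 1.36 and 5.74 with shSRPK1, and 3.01 and 1.29 with oeSRPK1.

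H2AC6 had the largest absolute rise of the H2A genes. Its level was 21.2 and 29.2 CPM in NT cells, 65.4 and 102 with shSRPK1, and 93.4 and 93.1 with oeSRPK1. Both transfected groups lay above NT and overlapped each other. The log2 fold change was 1.73 ± 0.24 (edgeR adjusted p = 0.0105) in shSRPK1 and 1.88 ± 0.24 (adjusted p = 0.00319) in oeSRPK1. H2AC11 (chr6:27133042-27135291) had another pattern, at 1.84 and 1.69 CPM in NT cells, 1.66 and 2.29 with shSRPK1, and 6.88 and 4.91 with oeSRPK1. Only the oeSRPK1 libraries lay above NT, with log2 fold changes of 0.15 ± 0.33 (edgeR adjusted p = 0.804) in shSRPK1 and 1.79 ± 0.31 (adjusted p = 0.00745) in oeSRPK1. The difference between the transfected groups was itself called (1.64 ± 0.30, edgeR adjusted p = 0.00998). H2AC7, H2AC8 and H2AC15 were not called in any comparison. Of the 101-base windows of H2AC7 and H2AC15, 2.39% and 0% were found in no transcript of another gene, the genes whose models overlap them (AL031777.3 and H2BC15) included. Their counts are uncertain for that reason.

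Of the 9 tested H2B genes, 2 were called higher in shSRPK1 and 6 in oeSRPK1. H2BC5 (chr6:26158146-26171349, spliced) was at 13.3 and 19.1 CPM in NT cells, 23.3 and 24.5 with shSRPK1, and 44.99 and 43.4 with oeSRPK1. The 3 groups did not overlap, but the test against NT was passed only in oeSRPK1: 0.55 ± 0.18 (edgeR adjusted p = 0.0914) in shSRPK1 and 1.44 ± 0.18 (adjusted p = 0.00234) in oeSRPK1. H2BC12 (chr6:27146418-27146798) was at 3.79 and 4.94 CPM in NT cells, 9.89 and 6.69 with shSRPK1, and 13.5 and 13.4 with oeSRPK1. Its groups followed the same order without overlap, with log2 fold changes of 0.92 ± 0.25 (edgeR adjusted p = 0.0575) in shSRPK1 and 1.61 ± 0.25 (adjusted p = 0.00532) in oeSRPK1. Of its 101-base windows, 72.2% were found in its own transcript alone. H2BC21, on chromosome 1, was at 5.83 and 7.77 CPM in NT cells, 16.8 and 30.8 with shSRPK1, and 22.8 and 16.03 with oeSRPK1. Both transfected groups lay above NT, and the 2 of them overlapped. H2BC21 rose by 1.79 ± 0.33 on the log2 scale in shSRPK1 (edgeR adjusted p = 0.0245) and by 1.55 ± 0.34 in oeSRPK1 (adjusted p = 0.0204).

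The less read H2B genes on chromosome 6 followed. H2BC11 (chr6:27125897-27132750, spliced) was at 0.583 and 1.34 CPM in NT cells, 3.40 and 3.83 with shSRPK1, and 4.45 and 4.39 with oeSRPK1. It rose in both groups without overlap with NT, by 1.84 ± 0.38 on the log2 scale (edgeR adjusted p = 0.0269) and by 2.14 ± 0.38 (adjusted p = 0.00848). The call in shSRPK1 was lost without either NT library or either oeSRPK1 library (1.42 to 2.60, edgeR adjusted p = 0.0799 to 0.260). The call in oeSRPK1 was lost without NT replicate 1 (1.71, edgeR adjusted p = 0.0815) and without oeSRPK1 replicate 1 (2.09, adjusted p = 0.128). H2BC4 (chr6:26114873-26123926, spliced), the neighbour of H2AC6, had few reads: 3 and 4 in NT cells, 11 and 9 with shSRPK1, and 40 and 7 with oeSRPK1. That is 0.291 and 0.282 CPM in NT cells, 0.831 and 0.861 with shSRPK1, and 1.80 and 1.81 with oeSRPK1. The closeness of these replicate values is thus uncertain. Its pooled ratio to NT was 2.95 in shSRPK1 (exact 95% interval 1.20 to 8.25, counting error only) and 6.29 in oeSRPK1 (2.83 to 16.5). Its groups did not overlap, and its log2 fold change was 1.53 ± 0.49 (edgeR adjusted p = 0.0874) in shSRPK1 and 2.61 ± 0.45 (adjusted p = 0.00738) in oeSRPK1. H2BC8 (chr6:26215159-26216692) was at 0.583 and 1.06 CPM in NT cells, 1.81 and 2.77 with shSRPK1, and 2.65 and 3.36 with oeSRPK1. Both transfected groups lay above NT, and the call was made in oeSRPK1 (1.76 ± 0.42, edgeR adjusted p = 0.0247) and not in shSRPK1 (1.41 ± 0.42, adjusted p = 0.0740). H2BC15, H2BC18 and H2BC9 were not called in either comparison, at log2 fold changes of 0.72, 1.14 and 1.76 in shSRPK1 and 0.69, 0.63 and 1.53 in oeSRPK1. The model of H2BC15 overlaps those of H2AC15 and H2AC16, and that of H2BC18 overlaps FCGR1A, so their reads may be split or shared.

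H3C10 (chr6:27810064-27811300) was the H3 gene with the most reads. It had 0.583 and 0.777 CPM in NT cells, 2.87 and 3.16 with shSRPK1, and 2.52 and 3.88 with oeSRPK1. It rose by about the same amount in both groups, by 2.11 ± 0.38 on the log2 scale (edgeR adjusted p = 0.0196) and by 2.08 ± 0.39 (adjusted p = 0.0102). H3C4 (chr6:26196840-26197250) had 0 and 3 reads in NT and 28 in the oeSRPK1 libraries together. That is 0 and 0.212 CPM in NT cells, 0.604 and 1.24 with shSRPK1, and 0.990 and 1.55 with oeSRPK1, so both groups lay above NT. In shSRPK1 the log2 fold change was 2.79 ± 0.87 and was not called (edgeR adjusted p = 0.0829). Its pooled ratio to NT in oeSRPK1 was 8.75 (exact 95% interval 2.70 to 44.96, counting error only), and edgeR called it (3.12 ± 0.85, adjusted p = 0.0375). The call was lost without either NT library or either oeSRPK1 library (2.39 to 6.81, edgeR adjusted p = 0.0923 to 0.199). None of the windows of H3C4 is unique to it and its model overlaps that of AL031777.3, as does that of H2AC7, so reads of H3C4 cannot be assigned with certainty. H3C6 had 0.874 and 0.353 CPM in NT cells, 1.59 and 0.956 with shSRPK1, and 1.39 and 1.03 with oeSRPK1. H3C6 and H3C8 lay above NT in both groups and were not called, at log2 fold changes of 1.13 and 1.4997 in shSRPK1 and 1.14 and 1.16 in oeSRPK1.

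H4C8 (chr6:26277609-26285638) was the only H4 gene called in any of the 3 comparisons. It had 0.583 and 0.989 CPM in NT cells, 0.906 and 0.956 with shSRPK1, and 2.97 and 2.59 with oeSRPK1. The oeSRPK1 libraries lay above the other 4, among which NT and shSRPK1 overlapped. The log2 fold change was 0.20 ± 0.43 (edgeR adjusted p = 0.816) in shSRPK1 and 1.80 ± 0.38 (adjusted p = 0.0159) in oeSRPK1. H4C16, the gene on chromosome 12, was not called: it had 1.26 and 1.20 CPM in NT cells, 1.13 and 1.82 with shSRPK1, and 1.98 and 1.03 with oeSRPK1.

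The 11 genes that were not tested had 12 to 54 reads each: H2AC13, H2AC14, H2AC20, H2BC7, H2BC13, H2BC17, H3C2, H3C3, H4C5, H4C9 and H4C14. Both libraries lay above both NT libraries for 7 of them in shSRPK1 and for 9 in oeSRPK1, beside 28.8% and 35.9% of all tested genes. With so few reads, a gene could reach the minimum of 10 through the transfected libraries, so nothing is read from these counts. H2AC13, H2AC14 and H4C14 share much of their sequence with other genes, with 42.4%, 19.2% and 5.18% of windows unique, and the model of H4C14 also overlaps H3C14. Over all 34 genes, 23 had at least 99.95% of their windows unique and 6 had under 50% unique.

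Between the transfected groups, 4 histone genes were higher in oeSRPK1 than in shSRPK1 and 0 were lower, where 11.5% of all tested genes were called higher and 11.3% lower. The 4 were H1-2 (0.51 ± 0.14 log2, edgeR adjusted p = 0.0354), H2BC5 (0.89 ± 0.17, adjusted p = 0.0120), H2AC11 and H4C8 (1.60 ± 0.38, adjusted p = 0.0218). The median of the 23 genes was 0.09. H2AC6, H2BC21, H2BC11 and H3C10, called in both comparisons with NT, did not pass here. The difference was 0.16 for H2AC6 (95% interval -0.38 to 0.69), -0.24 for H2BC21 (-0.97 to 0.49), 0.30 for H2BC11 (-0.46 to 1.06) and -0.02 for H3C10 (-0.77 to 0.73), and each interval spans 0. The median log2 fold change of these histones moved with the library left out. It was -0.14 without shSRPK1 replicate 1, 0.41 without shSRPK1 replicate 2, and 0.05 to 0.14 without any other library. None of the 4 calls was kept in every such refit.

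Variant histones are encoded outside this family, carry poly(A) tails as a rule and are made throughout the cell cycle. Of 13 listed, 9 were tested: 2 rose and 0 fell in shSRPK1, and 1 rose and 1 fell in oeSRPK1. Over all tested genes, 5.43% were called higher and 3.75% lower in shSRPK1, and 11.2% and 9.45% in oeSRPK1. H1-10, a linker histone, rose in shSRPK1 by 0.69 ± 0.16 (edgeR adjusted p = 0.0371) and did not pass in oeSRPK1 (-0.21 ± 0.16, adjusted p = 0.386). MACROH2A1, an H2A variant of silent chromatin, fell by 0.43 in oeSRPK1 (edgeR adjusted p = 0.0488). H2AX, H2AZ1, H3-3A and H3-3B were not called, with log2 fold changes of 0.05, -0.27, 0.05 and -0.31 in shSRPK1 and -0.06, 0.08, -0.38 and 0.48 in oeSRPK1. Over the 9 variants the median was 0.05 and -0.06, beside 1.42 and 1.55 for the 23 replication-dependent genes. As stated above, genes that reached the filter through the transfected libraries would tend to raise the medians of the 23.

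H2BC20P, a pseudogene of the H2B family named here after its values were seen, had a different order. It was at 14.6 and 16.3 CPM in NT cells, 24.7 and 32.8 with shSRPK1, and 11.9 and 12.1 with oeSRPK1. It rose in shSRPK1 (0.89 ± 0.17, edgeR adjusted p = 0.0241) and was not called in oeSRPK1 (-0.37 ± 0.19, adjusted p = 0.196).

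Of 34 tested genes that serve histone transcription and histone mRNA end processing, 0 rose and 1 fell in shSRPK1, where 5.43% of all tested genes were called higher and 3.75% lower. In oeSRPK1, 0 rose and 9 fell, where 11.2% of all tested genes were called higher and 9.45% lower. SLBP, which binds the stem-loop, was at 63.0 and 59.1 CPM in NT cells, 48.8 and 36.9 with shSRPK1, and 33.2 and 39.3 with oeSRPK1. Both transfected groups lay below NT. The call was made in oeSRPK1, where SLBP fell by 0.77 on the log2 scale (SE 0.16, edgeR adjusted p = 0.0165), and not in shSRPK1 (-0.51 ± 0.16, adjusted p = 0.0842). NPAT, the coactivator of histone gene transcription, was at 46.0 and 40.8 CPM in NT cells, 39.2 and 40.5 with shSRPK1, and 45.3 and 39.3 with oeSRPK1, and was called in neither. E2F1, a transcription factor of the G1/S transition, fell in oeSRPK1 by 1.82 (edgeR adjusted p = 0.00963). CCNE2 and CDK2, which form a kinase that acts on NPAT, fell in oeSRPK1 by 1.16 and 0.71 (edgeR adjusted p = 0.0178 and 0.0192), and CCNE2 also fell in shSRPK1 by 1.02 (adjusted p = 0.0404). The median over the list was -0.15 in shSRPK1 and -0.11 in oeSRPK1. Some of its genes are also on lists below: CPSF1 and FIP1L1 on that of polyadenylation factors, CCNE2 and E2F1 on that of replication genes. The counts of these lists are therefore not separate.

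Of 21 canonical cleavage and polyadenylation factors, which make the poly(A) ends of other mRNAs, 2 rose and 0 fell in shSRPK1: PCF11 by 0.98 ± 0.11 (edgeR adjusted p = 0.00448) and CSTF3 by 0.55 ± 0.12 (adjusted p = 0.0274). In oeSRPK1, 0 rose and 3 fell: FIP1L1, NUDT21 and CPSF1, by 0.59, 0.37 and 0.53. Of 23 histone chaperones, 1 rose (HJURP, 0.66) and 1 fell (NAP1L1, by 0.58) in shSRPK1. In oeSRPK1, 0 rose and 4 fell: RBBP4, MMS22L, NASP and NAP1L1, by 0.71, 0.86, 0.49 and 0.46. With lists of this size and 5.43% of all tested genes called higher and 3.75% lower in shSRPK1, and 11.2% and 9.45% in oeSRPK1, these counts are not a result about either list.

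Among genes of DNA replication, the calls against NT were lower. Of 28 genes on a list of replication and proliferation genes, 0 rose and 6 fell in shSRPK1, and 0 rose and 18 fell in oeSRPK1, beside 3.75% and 9.45% of all tested genes called lower. PCNA, the sliding clamp of DNA polymerase, was at 219 and 192 CPM in NT cells, 128 and 92.4 with shSRPK1, and 78.5 and 99.5 with oeSRPK1. It fell by 0.90 (edgeR adjusted p = 0.0269) and by 1.22 (adjusted p = 0.00532) on the log2 scale. UNG, which removes uracil from DNA, fell by 0.9999 (edgeR adjusted p = 0.00983) and by 1.97 (adjusted p = 0.000454). PRIM1, of the primase, fell in shSRPK1 by 0.97, and RFC3, of the clamp loader, in oeSRPK1 by 1.26. MKI67, a marker of cycling cells, was not called, at 129 and 92.4 CPM in NT cells, 181 and 103 with shSRPK1, and 115 and 130.3 with oeSRPK1. The list summed to 3009 and 2471 CPM in NT cells, 2196 and 1316 with shSRPK1, and 1369 and 1617 with oeSRPK1. Every transfected library thus lay above NT in its histone sum and below NT in the sum of the replication list. On the list of cell cycle arrest genes, 11 were tested. In oeSRPK1, CDKN1A, an inhibitor of cyclin-dependent kinases, and BTG1, an antiproliferative gene, rose by 0.96 and 0.89. CCND3, a D-type cyclin, fell by 0.76, and no other gene of the list was called, where 11.2% of all tested genes were called higher and 9.45% lower. In shSRPK1, 0 rose and 1 fell (CCND1, another D-type cyclin, by 0.77), where 5.43% of all tested genes were called higher and 3.75% lower. With 11 genes tested, these counts are not a result about the arrest list. The part of the cell cycle in the histone result was not tested.

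**Figure D5:**
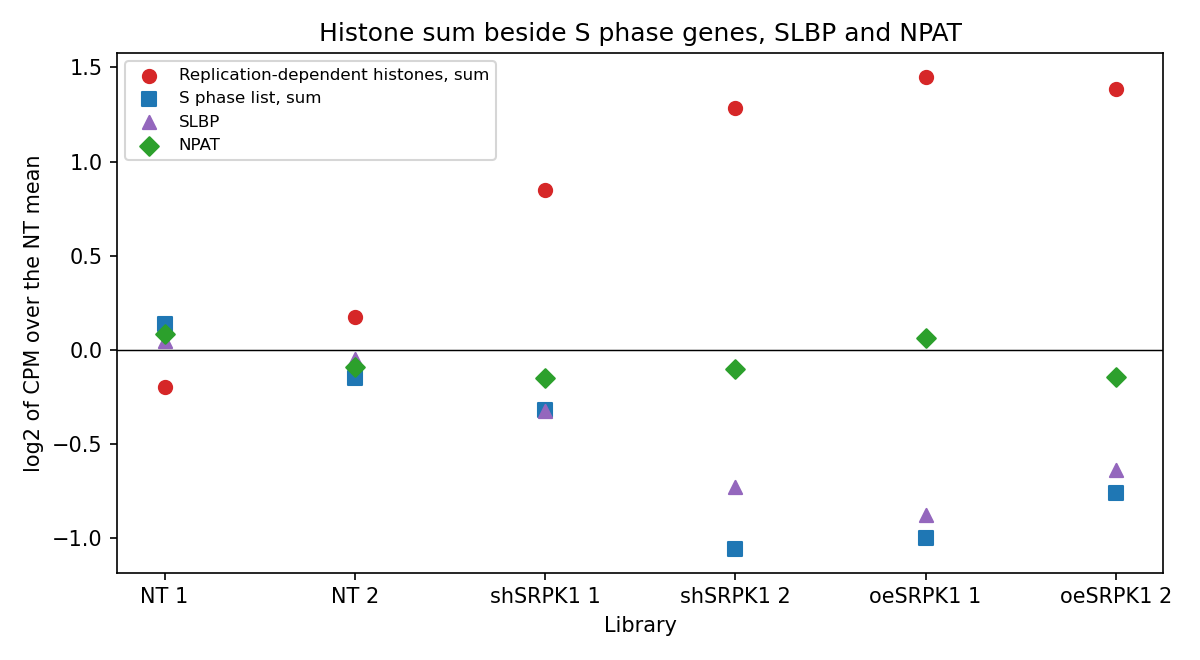
Log2 of the CPM in each library over the mean of the 2 NT libraries, for the summed replication-dependent histones, the summed list of replication and proliferation genes, SLBP and NPAT. The histone sum lies above 0 in all 4 transfected libraries, the replication list and SLBP lie below 0, and NPAT lies between -0.15 and 0.08.

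Skeletal muscle markers were highest in the oeSRPK1 libraries. ACTA1, a muscle actin, was at 74.0 and 897 CPM in the oeSRPK1 libraries, and the 9 muscle markers summed to 223 and 2652 CPM, while the histone sums of the same libraries were 343 and 328. Replicate 1 of shSRPK1, with a muscle sum of 0.982 CPM, had a histone sum of 225 CPM, above both NT libraries. The part of the muscle markers in the histone result was not tested. The libraries also differed in depth: oeSRPK1 replicate 2 had the fewest gene reads and replicate 1 the most, and their histone sums were the closest of any replicate pair. With all libraries thinned to the shallowest, 12 histone genes were tested and 4 were called in shSRPK1 and 7 in oeSRPK1. Of all genes tested in that fit, 5.09% and 9.85% were called higher.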

How the data were processed

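Poly(A)-selected RNA of 6 T98G libraries was sequenced as paired reads. The authors deposited raw read counts per gene, 1 table per library. FastQC, Trimmomatic and STAR 2.5.3 with genome hg38 are named in the submitters' processing notes. The counting tool, gene annotation and strand setting are not given in the sources used here. Reads that each table lists apart from genes entered no library size and no test: 8.13% to 11.1% in no gene, 3.04% to 3.37% ambiguous and 12.0% to 13.1% aligned at several places. Reads of near-identical histone copies can fall in the last class.

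Histone symbols were matched to gene identifiers through current symbols (65) or older ones (4). Positions and transcripts come from GENCODE 29 (GRCh38), whose identifier versions match the tables for 25 of the 34 genes. Promoters come from RefSeq GRCh38.p14. The members and gene lists were chosen with earlier results of these data known, and the list of RNAs without a poly(A) tail was added last.

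All 6 libraries were fitted in edgeR 4.0.16 (TMM, filterByExpr, robust glmQLFit and glmQLFTest, R 4.3.3), 14732 genes were tested, and p-values were adjusted over all of them by the Benjamini-Hochberg method. The scripts were tested on simulated data. SE is the log2 fold change divided by the square root of F. CPM values use TMM library sizes. Genes named are all 34 members, SRPK1, 9 fixed context genes and up to 4 called genes per list and comparison, by smallest adjusted p. Values of 2 genes that this rule takes are not reported here, and they stay in the counts, sums and medians of their lists. Deviations of same-numbered libraries correlated by -0.02 to 0.05, so the numbers were not taken as pairs. Alternatives were DESeq2 1.42.0 or upper-quartile scaling, other filters, DESeq2 and limma-voom 3.58.1 tests, only the libraries compared, a replicate block, each library left out, thinning and other thresholds.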

Additional observations from a re-analysis of the deposited data

How the results depend on the processing

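The main counts of histones called higher were 6 with shSRPK1 and 12 with oeSRPK1, each against NT, and 4 with oeSRPK1 against shSRPK1, and other settings are given in that order. Percentages in brackets are the shares of all genes in the fit called higher, in the same order: 5.43%, 11.2% and 11.5% in the main fit. DESeq2 size factors (5.34%, 10.8% and 11.1%) and upper-quartile scaling (5.04%, 9.9% and 10.6%) gave the same counts. DESeq2 gave 5, 10 and 3 (2.81%, 4.77% and 4.44%), and limma-voom 6, 12 and 5 (5.65%, 11.7% and 12.4%). No filter gave 13, 16 and 4 (5.4%, 6.63% and 6.39%). A filter of CPM 5 in 2 libraries, which tested 5 histones, gave 3, 5 and 2 (7.18%, 12.9% and 12.9%). Only the libraries compared gave 0, 14 and 3 (0.623%, 21.6% and 5.27%), and thinning 4, 7 and 2 (5.09%, 9.85% and 9.38%). An adjusted p under 0.01 gave 0, 7 and 1 (0.828%, 3.97% and 3.27%), and a minimum of 2-fold gave 5, 12 and 2 (2.15%, 4.95% and 4.07%). The replicate block, on numbers that the data do not show to be pairs, gave 6, 13 and 4 (4.24%, 9.96% and 9.85%). Leaving out each library in turn left 1 library in a group and changed which histones were called, as given above. The median log2 fold change of the tested histones then lay between 1.09 and 1.56, between 1.38 and 1.76, and between -0.14 and 0.41. In none of these fits was a histone called lower against NT. Over histones tested in both the main fit and the refit, 934 refitted values stayed on their side of the threshold, 98 lost the call and 35 gained it. Among these, 0 called values changed sign. The 934 include values called in neither fit. Calls of genes that a setting did not test are lost too and are not among the 98. Without the most read gene of its type, the ratio of summed CPM in shSRPK1 to NT was 4.68 for H1, 1.61 for H2A and 2.60 for H3, and in oeSRPK1 to NT 2.54 for H1 and 2.46 for H2A. Between oeSRPK1 and shSRPK1 it was 0.543 for H1, which reversed the order of the groups, 1.53 for H2A and 1.03 for H2B. Left-out libraries moved the oeSRPK1 to shSRPK1 ratio between 0.942 and 1.45 for H2A (0.942 without shSRPK1 replicate 1) and between 0.939 and 1.17 for H3 (0.939 without oeSRPK1 replicate 2). The cause of these changes was not tested. With 2 libraries a group and 12 to 80 reads for 20 of the 34 genes, differences of H3 and H4 genes are at the limit of what the depth can show.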
